A study of Mus musculus with 9 samples.

Results

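The cytosolic ribosomal protein genes were examined in perigonadal white adipose tissue, the visceral fat depot beside the gonads, of mice aged 4 months. Genes were taken by symbol: Rpl or Rps followed by digits, Rplp0 to Rplp2 and Rpsa, without the Rps6k kinases, and with only those probe sets whose platform annotation names exactly 1 symbol. This gave 53 of 16299 genes, with 292 probe sets. They were 19 proteins of the small subunit, 25 of the large subunit, 2 of the stalk, 6 paralogs and Rps19bp1, which carries the letters but encodes a protein that binds Rps19. Another 4 symbols (Rplp2, Rpl7a, Rpl38 and Rps3a) occurred only in probe sets shared with other genes, and Rps6, Rpl11, Rps27a, Rpl10, Rpl10l, Rpl36a and Rpl36al were not analysed here.

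Total RNA was hybridised to exon-level arrays, 3 each from mice homozygous for G609G, mice homozygous for LCS, and wild-type (WT) mice. G609G and LCS are known as alleles of Lmna, the gene of lamins A and C: G609G is a progeria allele that yields the shortened lamin A progerin, and LCS yields lamin C without lamin A. No treatment was given. The labels give neither sex nor littermates, and the number of arrays limits the precision of every value.

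The ribosome joins a small subunit, which decodes mRNA, and a large subunit, which forms peptide bonds, and nearly all of its proteins are present in a single copy. Ribosomal protein mRNAs are abundant, and most begin with a 5′ terminal oligopyrimidine (TOP) tract through which mTORC1 and Larp1 control their translation and stability. Some paralogs are restricted to tissues: Rpl3l stands in for Rpl3 in skeletal and heart muscle, and Rpl39l is a germ cell form of Rpl39.

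The annotated starts of 5 genes are shown with the pyrimidine runs near them: Rpl27a and Rps24 with the longest runs among the 5, Rps25 and Rpl22l1, whose values are given below, and the muscle paralog Rpl3l for contrast. Each line holds 100 bases of the plus strand, from 50 bases before the annotated start onward, from RefSeq (GRCm38.p6). Capitals mark a run of at least 8 pyrimidines (C or T) within 20 bases of the start. Where a gene had several annotated starts, the one with the longest run was chosen.
Rpl27a (chr7:109519145-109519244): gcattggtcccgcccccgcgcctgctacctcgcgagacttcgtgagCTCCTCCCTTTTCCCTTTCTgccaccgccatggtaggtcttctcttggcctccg
Rps24 (chr14:24490703-24490802): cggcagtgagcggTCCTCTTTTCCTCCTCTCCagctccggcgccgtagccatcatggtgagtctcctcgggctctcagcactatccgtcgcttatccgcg
Rps25 (chr9:44407664-44407763): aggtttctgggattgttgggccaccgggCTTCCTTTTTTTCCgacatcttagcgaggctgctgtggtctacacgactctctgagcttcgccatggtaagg
Rpl22l1 (chr3:28805458-28805557): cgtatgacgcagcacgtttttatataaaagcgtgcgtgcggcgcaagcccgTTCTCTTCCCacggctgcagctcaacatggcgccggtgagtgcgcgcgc
Rpl3l (chr17:24727776-24727875): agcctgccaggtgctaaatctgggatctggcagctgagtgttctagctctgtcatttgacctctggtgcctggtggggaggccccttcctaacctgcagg

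The longest such run was 20 bases in Rpl27a, 19 in Rps24, 14 in Rps25, 10 in Rpl22l1 and 5 in Rpl3l, where none is marked. In Rpl27a the run spans the annotated start and in Rpl22l1 it lies just inside it. In Rps24 and Rps25 it ends before the annotated start, outside the annotated transcript, so the letters alone do not make it a TOP tract. Promoter windows of 300 bases, from 250 before the start to 50 from it onward, were matched for 36 subunit and stalk genes. A gene was counted when any of its annotated windows matched, so a gene with more windows had more chances. A run of at least 8 was present in 17 of the 36 (47.2%), against 23.7% of 17492 protein-coding genes. The letters CCGGAAGT, a form of the site of the ETS factor GABPA, occurred on either strand for 8 of the 36 genes (22.2%, against 5.69% of all), and AAGATGGCG, a form of the YY1 site, for 2 (5.56%, against 2.14%). GGGCGG, the SP1 core, occurred in 61.1% against 49.2% of all, CACGTG in 13.9% against 8.91%, and TATAAA in 11.1% against 14.8%. No searched string lies within another. These are letter matches around annotated starts, which need not be the starts used in fat.

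A gene's value is the median polish of its probe sets, in log2 intensity. A gene entered the tests when 3 or more probe sets measured it and its mean exceeded 4.86, the 25th percentile of genes. Of the 53 members 36 were tested; 16 had only 1 or 2 probe sets, and Rpl39l was too dim. As deposited, most genes were low on the G609G arrays: over the 11805 tested genes the median difference was -0.46 in G609G minus WT and 0.05 in LCS minus WT. The G609G arrays also held skeletal muscle transcripts (values below), whose part in this difference was not tested. A loss common to most transcripts, a different mix of tissues and an effect of the authors' normalization cannot be told apart from these values. Folds are therefore given relative to the median gene, which adds 0.45 to a deposited G609G minus WT difference and -0.03 to an LCS minus WT difference, with the deposited difference beside them. Within genotypes the arrays correlated across tested genes at r from 0.99 to 0.998.

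In G609G fat the ribosomal protein genes were slightly lower than in WT as deposited, and most other genes were lower still. The median deposited difference of the 36 tested members was -0.13, or 0.913 times WT, against -0.46 over all tested genes. Relative to the median gene their median log2 fold was 0.32. On that scale limma, with Benjamini-Hochberg adjustment over all tested genes, called 30 members higher and 1 lower, that is 83.3% and 2.78%, against 33.4% and 36.5% of all tested genes. On the deposited scale it called 2 members higher and 22 lower (5.56% and 61.1%), against 8.27% and 70.1% of all tested genes. The direction in G609G thus turned with the scaling. The members' median lay above that of all tested genes on both scales, an order that a shift common to all genes cannot change. In bulk tissue, fewer cells of a type and less RNA per cell cannot be told apart.

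The middle 50% of the members spanned 0.24 on the log2 scale in G609G minus WT, against 0.68 for all tested genes. The contrast was smaller in LCS minus WT, with 0.21 against 0.29. It was not seen in LCS minus WT among genes with a mean value above 12. Quartiles there were -0.31 and -0.10 for members, against -0.06 and 0.11 for other genes. From 10 to 11 they were -0.36 and -0.19, against -0.10 and 0.21. In G609G minus WT the quartiles above 12 were 0.15 and 0.32 for members, against -0.23 and 0.32. All 12 tested small subunit genes were called higher in G609G minus WT relative to the median gene (median 0.35). So were 13 of 16 large subunit genes (median 0.31) and both stalk genes, while Rpl22 and Rpl4 did not pass and Rpl27a was lower. As deposited, 6 small subunit genes, 10 large subunit genes and both stalk genes were called lower, and Rps25 alone among these 30 was called higher.

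In LCS fat the ribosomal protein genes were lower than in WT on both scales. The median log2 fold of the 36 tested members was -0.17 relative to the median gene, or 0.891 times WT, and -0.14 as deposited. The test called 22 members lower and 1 higher (61.1% and 2.78%), against 17.1% and 21.8% of all tested genes. As deposited it called 19 lower and 1 higher, against 13.1% and 21.8% of all tested genes. All 30 tested subunit and stalk genes had a negative fold relative to the median gene, and 22 of them passed. These were 10 of 12 small subunit genes (median -0.27), 10 of 16 large subunit genes (median -0.17) and both stalk genes.

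**Figure D1:**
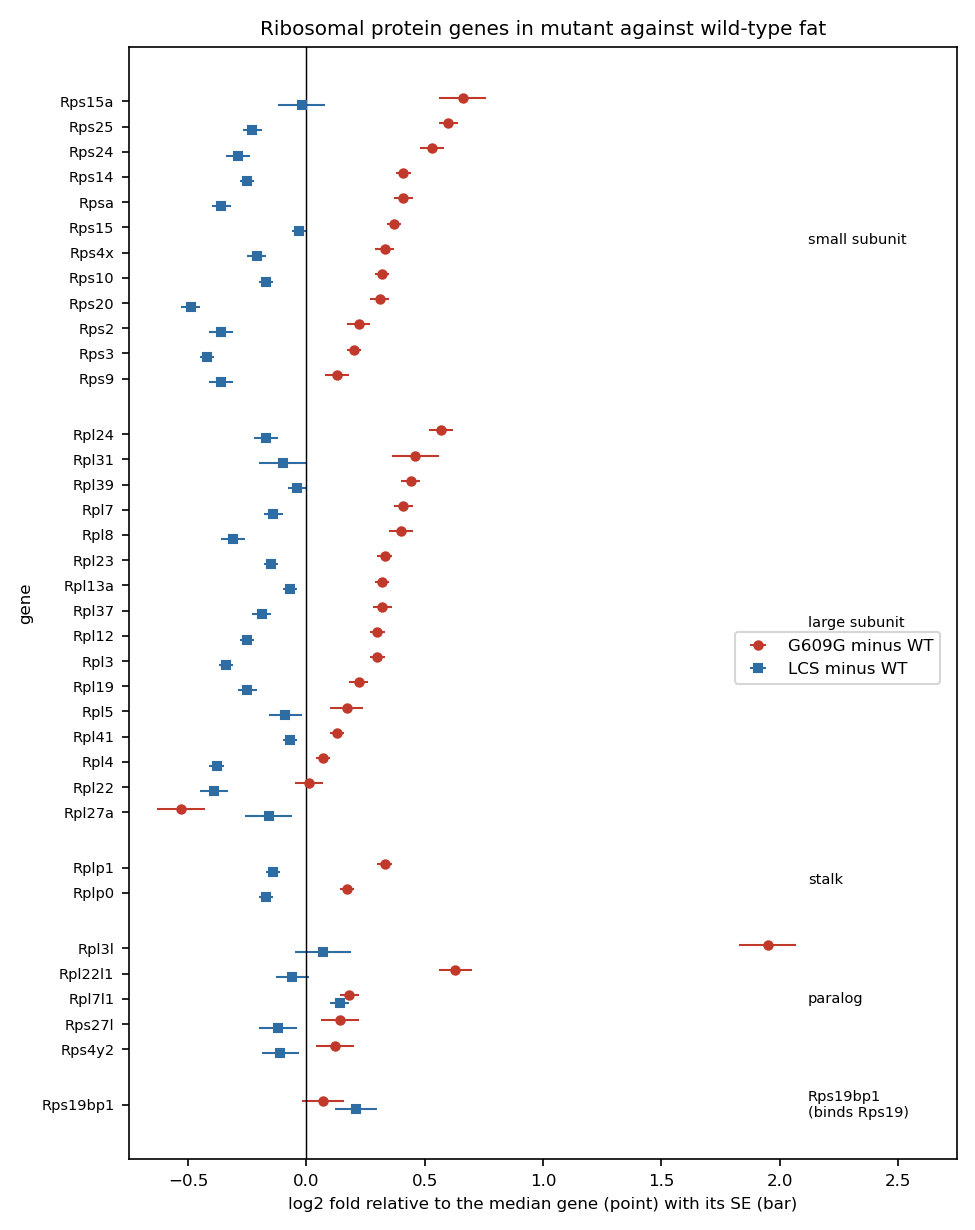
Log2 fold relative to the median gene (x axis; points, with bars of 1 SE) for the 36 tested genes by role, in G609G minus WT (circles) and LCS minus WT (squares), 3 arrays a genotype; both use the same WT arrays. Subunit and stalk genes lie between -0.53 (Rpl27a) and 0.66 (Rps15a) in G609G minus WT and between -0.49 (Rps20) and -0.02 (Rps15a) in LCS minus WT, and Rpl3l lies apart at 1.95.

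The G609G and LCS folds share their WT arrays, so the mutants were also compared directly. Relative to the median gene, 33 of 36 members were higher in G609G than in LCS and 1 was lower, against 36.5% and 36.7% of all tested genes, with a median log2 fold of 0.50. As deposited the median was 0.02, with 12 members called higher and 9 lower (33.3% and 25%, against 9.38% and 69.1% of all tested genes). The member in the middle thus had nearly the same deposited value in both mutants, on arrays where the median gene differed by -0.46. All 12 small subunit genes were higher in G609G relative to the median gene (median 0.64), as were 15 of 16 large subunit genes (median 0.48).

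The folds were set beside those of other genes by brightness. For the 10 members with a mean value above 10 and up to 11, the median fold was 0.32 in G609G minus WT and -0.30 in LCS minus WT, against 0.01 and 0.05 for 689 other genes in that range. For the 7 members above 12 the medians were 0.30 and -0.17, against 0.06 and 0.02 for 87 other genes. For the 6 members between these ranges they were 0.32 and -0.20, against 0.00 and 0.09, and for the 7 members above 8 and up to 10 they were 0.17 and -0.16, against -0.02 and 0.04. Among the 6 members with dimmer gene values the LCS difference was not seen in those values. These were Rpl31 and Rps15a of the subunits, the paralogs Rpl3l, Rpl22l1 and Rps4y2, and Rps19bp1, so brightness and role cannot be told apart there. The medians there were -0.01 for the 2 up to 6, against -0.01 for other genes, and -0.04 for the 4 up to 8, against 0.02, and none of the 6 was called in LCS minus WT. The gene values of Rpl31 and Rps15a join dim and bright probe sets. Their brightest probe sets were picked after the values were seen. That of Rpl31 read 11.03, 11.08 and 10.92 in LCS and 11.38, 11.43 and 11.37 in WT, without overlap. Its other probe sets averaged 6.24, 3.24 and 5.29 in LCS, against 6.38, 3.07 and 5.08 in WT. That of Rps15a averaged 9.61 in LCS and 9.88 in WT, with overlap. With probe sets brighter than 12 left out, a setting chosen after seeing the data, 31 members could be tested. Of these 25 were called higher in G609G minus WT (33.4% of all genes in that fit) and 19 lower in LCS minus WT (17.1% of all).

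**Figure D2:**
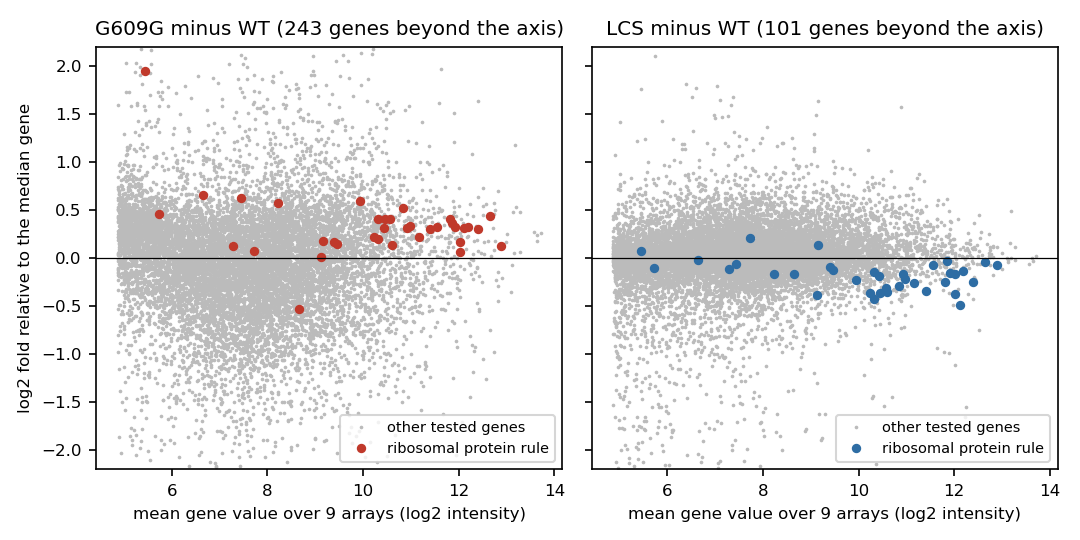
Log2 fold relative to the median gene (y axis) against the mean gene value over 9 arrays (x axis, log2 intensity), for the 36 tested members (large points) and other tested genes (grey), in G609G minus WT (left) and LCS minus WT (right). Beyond the y axis lie 243 other genes on the left and 101 on the right. The members lie mostly above 0 on the left and below 0 on the right.

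Of the small subunit genes, Rps25, a protein of the subunit's head that several viral internal ribosome entry sites require, had values of 10.08, 10.08 and 10.15 in G609G, 9.82, 9.71 and 9.73 in LCS, and 9.88, 9.91 and 10.07 in WT. All G609G arrays were above, and all LCS arrays below, every WT array, even as deposited. The log2 fold was 0.60 in G609G minus WT (SE 0.04, limma adjusted p = 3.05e-08; deposited difference 0.15, adjusted p = 0.0241). It was -0.23 in LCS minus WT (SE 0.04, limma adjusted p = 0.000384).

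Rps15a, with a fold of 0.66 in G609G minus WT (SE 0.10, limma adjusted p = 8.92e-05), and Rps24, with 0.53 (SE 0.05, limma adjusted p = 6.58e-07), had deposited differences of 0.21 and 0.08 that did not pass. The value of Rps15a rests on 3 probe sets that did not move alike. Their deposited means were 9.70, 7.25 and 4.20 in G609G, against 9.88, 6.57 and 4.00 in WT. The brightest was thus lower on average in G609G as deposited, and the dimmest lay below the filter level. The human gene of Rps24 is mutated in some cases of Diamond-Blackfan anaemia. In LCS minus WT, Rps24 fell by 0.29 on the log2 scale (SE 0.05, limma adjusted p = 0.000333), while Rps15a, at -0.02, and Rps15, at -0.03, were the small subunit genes that did not pass.

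Rps20, another protein of the small subunit's head, had the lowest LCS minus WT fold of the tested members, at -0.49 (SE 0.04, limma adjusted p = 1.03e-06). Its values were 12.16, 12.14 and 12.20 in G609G, 11.80, 11.94 and 11.82 in LCS, and 12.28, 12.28 and 12.37 in WT. The genotypes did not overlap, with LCS lowest and WT highest. In G609G minus WT its fold was 0.31 relative to the median gene (SE 0.04, limma adjusted p = 1.78e-05) and its deposited difference -0.14.

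Rps3, which lines the mRNA entry channel and also takes part in DNA repair, read 10.28 on each of the 3 G609G arrays, 10.13, 10.11 and 10.16 in LCS, and 10.52, 10.52 and 10.54 in WT. The genotypes again stood apart in the same order. Its LCS minus WT fold was -0.42 (SE 0.03, limma adjusted p = 8.53e-07), and its deposited G609G minus WT difference was -0.25. Rps2, a neighbour of Rps3 at the entry channel, fell by 0.36 on the log2 scale in LCS minus WT (SE 0.05, limma adjusted p = 8.81e-05).

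Rpsa, the small subunit protein also known as a laminin receptor, had 10.56, 10.49 and 10.55 in G609G, 10.26, 10.25 and 10.21 in LCS, and 10.50, 10.49 and 10.72 in WT. G609G and WT overlapped as deposited, and every LCS array was below both. The fold was 0.41 in G609G minus WT (SE 0.04, limma adjusted p = 3.57e-06) and -0.36 in LCS minus WT (SE 0.04, limma adjusted p = 3.42e-05).

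Of the large subunit genes, Rpl4, whose protein lines the peptide exit tunnel, had 11.88, 11.85 and 11.91 in G609G, 11.90, 11.95 and 11.90 in LCS, and 12.26, 12.25 and 12.29 in WT. Both mutants lay below WT on every array. The LCS minus WT fold was -0.38 (SE 0.03, limma adjusted p = 9.36e-07). In G609G minus WT the fold relative to the median gene did not pass (0.07, SE 0.03, limma adjusted p = 0.0665), and the deposited difference of -0.38 did (adjusted p = 6.16e-09). With the replicate number as a block over the G609G and WT arrays, the fold passed (0.08, limma adjusted p = 0.0312).

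Rpl24, the gene of the mouse Belly spot and tail mutation, had the highest G609G minus WT fold of the tested large subunit genes. It had 8.30, 8.30 and 8.46 in G609G, 8.05, 8.13 and 8.10 in LCS, and 8.18, 8.22 and 8.29 in WT. The G609G arrays were highest and the LCS arrays lowest, without overlap. That fold was 0.57 (SE 0.05, limma adjusted p = 1.28e-06), and the deposited difference of 0.12 did not pass (limma adjusted p = 0.129).

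Rpl41, the smallest ribosomal protein, had 12.66, 12.70 and 12.69 in G609G, 13.00, 12.91 and 12.99 in LCS, and 12.98, 13.03 and 13.01 in WT. Only G609G stood apart, below both other genotypes. Its G609G minus WT fold on the scale of the median gene was 0.13 (SE 0.03, limma adjusted p = 0.00201). Rpl39, a small protein of the exit tunnel, read 12.65, 12.66 and 12.62 in G609G, 12.60, 12.69 and 12.64 in LCS, and 12.65, 12.66 and 12.64 in WT. Its genotypes overlapped fully as deposited (differences of -0.01 in G609G minus WT and in LCS minus WT).

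Rpl5, which binds 5S rRNA and, outside the ribosome, Mdm2, had a G609G minus WT fold of 0.17 that passed narrowly (SE 0.07, limma adjusted p = 0.0471). It missed the threshold without G609G replicate 1 or 3, without WT replicate 2 or 3 and without LCS replicate 1, with limma adjusted p up to 0.187. Rpl13a, often used as a reference gene in PCR, had 11.45, 11.41 and 11.56 in G609G, 11.56, 11.55 and 11.56 in LCS, and 11.57, 11.59 and 11.64 in WT. Both mutants lay just below WT. Its fold was 0.32 in G609G minus WT (SE 0.03, limma adjusted p = 9.95e-07) and -0.07 in LCS minus WT, which did not pass (limma adjusted p = 0.0643).

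Of the stalk, which recruits the translational GTPases, Rplp0 had 11.84, 11.90 and 11.90 in G609G, 12.03, 12.03 and 12.01 in LCS, and 12.19, 12.10 and 12.18 in WT. The genotypes did not overlap, and G609G was lowest. Its deposited G609G minus WT difference was -0.28 and its fold relative to the median gene 0.17. Rplp1 had a deposited difference of -0.12 and a fold of 0.33. Both were lower in LCS than in WT, with folds of -0.17 for Rplp0 and -0.14 for Rplp1 (SE 0.03 each, limma adjusted p = 0.000915 and 0.00463).

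Rpl27a was the only tested member called lower in G609G relative to the median gene. It had 7.95, 7.84 and 8.36 in G609G, 8.88, 8.90 and 8.90 in LCS, and 8.84, 9.10 and 9.14 in WT, so every G609G array lay below all others. The fold was -0.53 (SE 0.10, limma adjusted p = 0.000667) and the deposited difference -0.98. This value rests on 3 probe sets, with means of 7.48, 7.96 and 8.80 in G609G, against 8.31, 9.05 and 9.59 in WT, and each was lower on every G609G array. Its 8 further probe sets, shared with another symbol, had a median G609G minus WT fold of 0.32, from -0.17 to 0.65. Relative to the median gene, the sign for Rpl27a thus differed between the 2 kinds of probe set.

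Among the paralogs, Rpl3l had the highest fold of the tested members. It had 6.16, 6.35 and 6.72 in G609G, 5.14, 4.94 and 4.96 in LCS, and 4.86, 4.85 and 5.02 in WT. All G609G arrays were above all others, on both scales: the fold was 1.95 (SE 0.12, limma adjusted p = 2.44e-08) and the deposited difference 1.50. The WT values of Rpl3l lay close to the filter level of 4.86, so the size of this fold is uncertain. The G609G samples also held skeletal muscle transcripts: over 19 measured muscle markers, the mean value of an array was 11.26 to 11.33 in G609G, 5.68 to 5.74 in LCS and 5.46 to 5.54 in WT, with 0, 9 and 11 of the 19 below the filter level. Since many of them were below that level in WT, no fold is given. Their part in the Rpl3l value, and in the folds of the other members, was not tested.

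Rpl3 itself, which Rpl3l can replace, had 11.45, 11.36 and 11.41 in G609G, 11.23, 11.26 and 11.26 in LCS, and 11.53, 11.52 and 11.62 in WT. The genotypes did not overlap, with LCS lowest. The fold was 0.30 in G609G minus WT (SE 0.03, limma adjusted p = 6.1e-06; deposited -0.15) and -0.34 in LCS minus WT (SE 0.03, limma adjusted p = 6.32e-06). The change of Rpl3l minus that of Rpl3, taken within each array so that an array's offset cancels, was 1.65 in G609G minus WT and 0.41 in LCS minus WT.

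Rpl22l1 and Rpl22, a paralog pair of the large subunit, were compared likewise. Rpl22 had 8.94, 8.81 and 9.09 in G609G, 9.16, 8.98 and 8.95 in LCS, and 9.38, 9.31 and 9.46 in WT, below WT on every mutant array. Rpl22l1 had 7.42, 7.60 and 7.67 in G609G, 7.41, 7.31 and 7.35 in LCS, and 7.31, 7.40 and 7.44 in WT, with overlap between the deposited values of G609G and WT. On the scale of the median gene, Rpl22l1 was higher in G609G (0.63, SE 0.07, limma adjusted p = 4.93e-06), and Rpl22 was lower in LCS (-0.39, SE 0.06, limma adjusted p = 0.000494). The within-array change of Rpl22l1 minus Rpl22 was 0.61 in G609G minus WT and 0.32 in LCS minus WT.

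Rpl7l1, a paralog of Rpl7, was the only tested member called higher in LCS. It had 8.90, 8.94 and 8.92 in G609G, 9.39, 9.28 and 9.39 in LCS, and 9.17, 9.18 and 9.21 in WT, without overlap. Its LCS minus WT fold was 0.14 (SE 0.04, limma adjusted p = 0.0195), a call that was lost without WT replicate 3, LCS replicate 1 or LCS replicate 3, and after quantile or cyclic loess normalization (0.10 in each). Rpl7 was lower in LCS (-0.14, SE 0.04, limma adjusted p = 0.00726), but its deposited difference of -0.11 did not pass (limma adjusted p = 0.0647), nor did its fold without LCS replicate 1. The change of Rpl7l1 minus Rpl7 was -0.22 in G609G minus WT and 0.28 in LCS minus WT. For Rps4y2, a symbol now listed as the transcribed pseudogene Rps4l, minus Rps4x it was -0.21 and 0.10.

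Each of these 4 pairs was compared in 3 contrasts, 12 comparisons in all. In 11 of them the genotypes did not overlap, with an exact two-sided permutation p of 0.1, the smallest that 3 arrays against 3 allow (0.109 adjusted over the 12). The exception was Rps4y2 minus Rps4x in LCS minus WT, with an exact permutation p of 0.4. The 12 comparisons share the same 9 arrays, and such separation was common in these data. Among 11805 tested genes, relative to the median gene, G609G lay wholly above WT for 4014 and wholly below for 4345. For LCS against WT the counts were 3710 and 2982, and for G609G against LCS 4434 and 4410. Rps27l, a p53-responsive form of Rps27 in human cells, did not pass relative to the median gene in G609G minus WT (0.14, limma adjusted p = 0.127) or LCS minus WT (-0.12, limma adjusted p = 0.253). As deposited it was called lower in G609G (-0.31, limma adjusted p = 0.00157). Rps27 itself had too few probe sets.

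**Figure D3:**
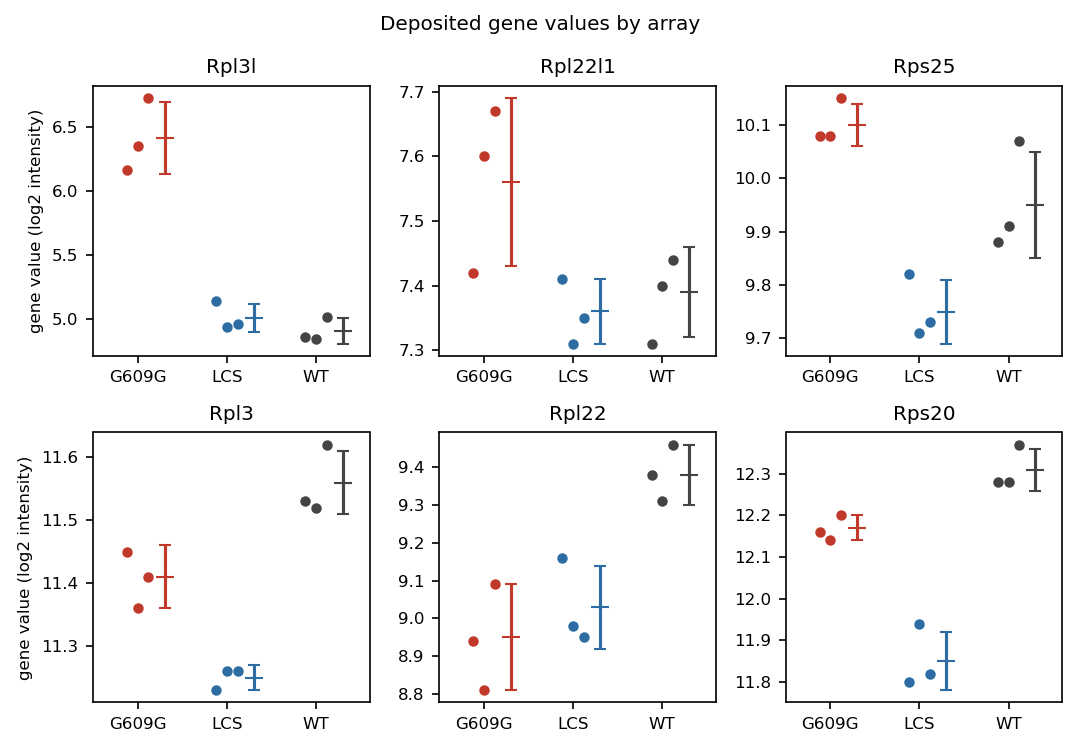
Deposited gene values (y axis, log2 intensity, a scale of its own in each panel) of 6 genes on each array by genotype (x axis). Points are arrays, and the mark and bar beside them are the mean and SD of 3 arrays. Rpl3l is high in G609G alone, Rpl22 is below WT in both mutants, and LCS is lowest for Rpl3, Rps25 and Rps20.

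The 17 members that were not tested were fitted without the filter. Each array was centred anew there, on the median over all 16299 genes. The folds and counts of that fit are thus on another scale than those of the 36 tested members above. In G609G minus WT 5 were called higher and 2 lower relative to the median gene (median 0.12), against 32.3% and 36.4% of all 16299 genes in that fit. For LCS minus WT the counts were 1 higher and 5 lower (median -0.11), against 16.6% and 12.3%. Over all 53 members in that same fit, 27 were higher and 4 lower in G609G minus WT (median 0.14). In LCS minus WT 2 were higher and 26 lower (median -0.14).

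Rpl39l, the germ cell paralog, had gene values of 4.03, 3.47 and 3.49 in G609G, 3.37, 3.35 and 3.34 in LCS, and 4.30, 3.74 and 4.21 in WT. LCS was below WT without overlap, and G609G overlapped with WT. Its brightest probe set, singled out after its values were seen, read 6.75, 5.78 and 4.38 in G609G, 4.89, 5.26 and 4.55 in LCS, and 7.99, 7.81 and 8.22 in WT. All mutant arrays were below all WT arrays there. The WT samples also held the most testis and sperm transcripts: over 14 measured markers the mean of an array was 7.33 to 7.47 in G609G, 5.69 to 5.73 in LCS and 9.21 to 9.37 in WT, with 2, 5 and 0 of the 14 below the filter level. Their part in the Rpl39l values was not tested.

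Other tissues' markers moved with genotype too, beside all of the members' folds. The 13 epididymis markers averaged 7.95 to 8.08 in G609G, 10.81 to 10.93 in LCS and 11.94 to 11.98 in WT, with 3, 1 and 0 below the filter level. Single epididymis markers did not all follow these means. In LCS minus WT 5 were called higher and 5 lower relative to the median gene (median 0.08). The shares of all tested genes were 21.8% and 17.1%. The 14 mature adipocyte markers averaged 10.84 to 10.89 in G609G, 12.20 to 12.22 in LCS and 11.96 to 11.99 in WT, and of these Lep alone was below the filter level, in G609G. The 10 macrophage markers averaged 7.45 to 7.65 in G609G, 8.94 to 9.04 in LCS and 8.64 to 8.71 in WT. Defining fat cell genes were thus present in every genotype, and the part of these tissues in the members' folds was not tested.

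The rest of the translation apparatus was described by lists. In LCS, the list closest to the ribosomal proteins was that of elongation factors and other TOP transcripts, with 11 of 17 tested genes lower and 1 higher (median -0.22), against 17.1% and 21.8% of all tested genes. Eef1b2, a subunit of the elongation factor that reloads Eef1a with GTP, had a fold of -0.33 (SE 0.04, limma adjusted p = 1.27e-05), and Eef2, the translocase, -0.20 (SE 0.02, limma adjusted p = 2.33e-05). Naca, a chaperone of nascent chains, had -0.29, while Nap1l1, a histone chaperone, was the gene called higher, at 0.36 (SE 0.04, limma adjusted p = 3.39e-05).

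The LCS folds of the other lists centred near 0. Of 29 initiation factor genes 8 were higher and 5 lower (median -0.01), shares near the 21.8% and 17.1% of all tested genes, with Eif3m at -0.37 and Eif4g1, the scaffold of the cap-binding complex, at 0.24. Of 43 ribosome biogenesis genes 4 were higher and 1 lower (median 0.02). Of 15 genes of RNA polymerase I and its factors 2 were higher and 1 lower (median 0.06). Of 20 genes of mTORC1 and TOP regulation 8 were higher and 2 lower (median 0.05), with Ddit4, an inhibitor of mTORC1, at 0.93 (SE 0.05, limma adjusted p = 6.6e-08).

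In G609G the medians of the lists lay above the median gene. Of all tested genes 33.4% were called higher and 36.5% lower on that scale, and 8.27% and 70.1% as deposited. Relative to the median gene, 35 of 43 ribosome biogenesis genes were higher and 3 lower (median 0.44), with Gnl3, the nucleolar GTPase nucleostemin, at 1.42 (SE 0.06, limma adjusted p = 1.49e-09) and Ncl, nucleolin, at 0.68. As deposited, 10 were higher and 9 lower (median -0.01). Of 29 initiation factor genes 23 were higher and 1 lower (median 0.34), or 2 higher and 14 lower as deposited. Of 15 RNA polymerase I genes 11 were higher and 2 lower (median 0.29), or 2 and 7 as deposited. Of 17 elongation factor and other TOP genes 10 were higher and 2 lower (median 0.18), or 2 and 13 as deposited, shares near those of all tested genes on the deposited scale.

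The mTORC1 and TOP regulation list held the highest G609G folds of these lists. Relative to the median gene 16 of 20 were higher and 1 lower (median 0.44), or 8 and 6 as deposited. Ddit4 had 11.22, 11.23 and 11.32 in G609G, 9.61, 9.45 and 9.66 in LCS, and 8.51, 8.57 and 8.77 in WT. The genotypes did not overlap, with G609G highest. Its G609G minus WT fold was 3.09 (SE 0.05, limma adjusted p = 2.26e-13), and that of Sesn1, another inhibitor of mTORC1, was 2.68 (SE 0.04, limma adjusted p = 4.11e-14). Both were also higher as deposited, by 2.64 and 2.23. The gene called lower, named after its values were seen, was Tsc2, a further inhibitor of mTORC1, with a fold of -0.71 (SE 0.06, limma adjusted p = 2.3e-07) and a deposited difference of -1.16. The list does not hold inhibitors alone. Mycl1 (1.68), Myc (1.16), Rheb (0.43) and Rps6kb1 (0.34), likewise named after their values were seen, were among those called higher. As deposited, Mycl1 (1.23) and Myc (0.71) passed, and Rheb (-0.02) and Rps6kb1 (-0.10) did not.

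**Figure D4:**
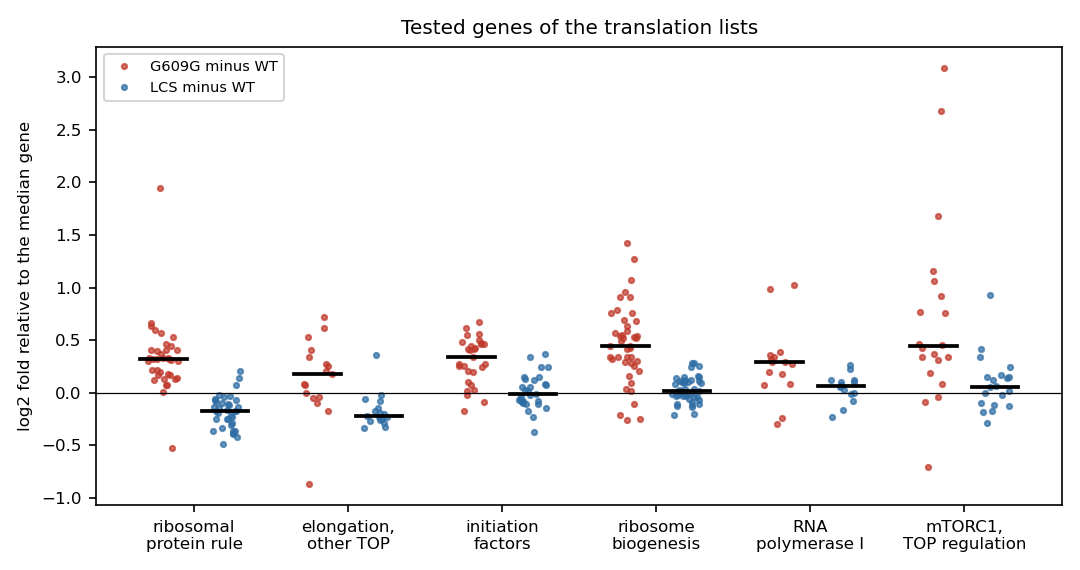
Log2 fold relative to the median gene (y axis) of each tested gene (points) by list (x axis), in G609G minus WT and LCS minus WT, with the median of each list as a bar. In LCS minus WT the medians are -0.17 for the ribosomal protein genes and -0.22 for elongation factors and other TOP transcripts, against -0.01 to 0.06 for the other lists.

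Single probe sets were tested against the rest of their gene, which does not depend on the scaling between arrays. Of 250 probe sets in 44 member genes, diffSplice called 22 in 16 genes in G609G minus WT (8.8%, against 15.9% of all probe sets tested) and 5 in 5 genes in LCS minus WT (2%, against 1.8%). A probe set of Rpl13a was called in both: it read 5.14, 4.91 and 5.32 in G609G, 6.78, 6.19 and 6.58 in LCS, and 5.86, 5.83 and 5.89 in WT. It was lowest in G609G and highest in LCS, without overlap, and differed from the rest of its gene by -0.61 in G609G minus WT (diffSplice adjusted p = 4.98e-05) and 0.69 in LCS minus WT (diffSplice adjusted p = 2.46e-05).

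A probe set of Rpl22 read 6.55, 6.62 and 6.98 in G609G against 7.99, 7.69 and 7.81 in WT, lower on every G609G array. It differed from the rest of Rpl22 by -0.81 (diffSplice adjusted p = 0.000103). The probe set with the lowest p in G609G minus WT, one of Rpsa, read 5.19, 3.62 and 4.91 in G609G and 4.68, 7.41 and 6.74 in WT. Its G609G mean of 4.57 was below the probe set filter level of 5.13, and the first WT array lay within the G609G range, so no fold is given. The probe set count for G609G minus WT dropped to 13 without WT replicate 1 and to 9 without WT replicate 2.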

How the data were processed

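Perigonadal fat of 3 genotypes was measured on 9 arrays, 3 a genotype, with 229581 probe sets. The values that the authors deposited are log2 intensities of single probe sets, none missing; their normalization and software are not given in the sources used here, and the build is mm9 per the submitters' processing notes. The design text calls the replicates biological. Members and gene lists were chosen with earlier results of these data known.

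Probe sets with exactly 1 symbol (208397, against 3965 with several and 17219 with none) were summarised per gene by median polish in R 4.3.3. Genes measured by 3 or more probe sets, whose mean exceeded the 25th percentile of genes (4.86), entered limma 3.58.1 (lmFit, eBayes with a trend, all 9 arrays, Benjamini-Hochberg over 11805 genes, threshold 0.05). Each array was first shifted by the median of its deviations from the gene means. Probe sets above 5.13, the 25th percentile of probe sets, were tested against the rest of their gene with diffSplice. The fits were tested on simulated data. Figures were drawn with matplotlib 3.10.9 in Python 3.11.15.

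The rule for genes named with values took, where tested, the stalk genes and Rpsa, both genes of each paralog pair, a fixed few (Rps6, Rps19, Rpl5, Rpl11, Rpl13a, Rps3, Rps27a, Rpl26), the 5 highest and 5 lowest folds of each comparison, and probe sets and list genes with the lowest p. Of the fixed few, Rps19 and Rpl26 had too few probe sets to be tested, and Rps6, Rpl11 and Rps27a were not analysed here. Replicate numbers of the titles were checked for pairing, since the labels do not say what they stand for. Same-numbered G609G and WT arrays deviated together, at r of 0.176, 0.15 and 0.348. LCS and WT arrays did not in every pair (-0.12, 0.208 and 0.088), nor did G609G and LCS arrays (-0.13, 0.122 and 0.109). The main fit used no block. Alternatives covered the scaling, the summary, the filters, the variance model, the arrays in the fit, the replicate block, the t-test of the design text, and fits without 1 array. Of the members, 52 carry a symbol current in the RefSeq table.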

Additional observations from a re-analysis of the deposited data

Results flagged for a closer look

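Probe sets annotated with a ribosomal protein symbol together with another symbol entered none of the gene tests above (those of Rpl27a were only set beside its gene value), and they carried a signal too. Of 47 such probe sets, 36 were called higher and 0 lower in G609G minus WT relative to the median gene by limma (median 0.34), against 43.9% and 17.7% of all 3965 probe sets with several symbols. Their deposited differences were not tested. The scaling adds 0.45 to each G609G minus WT difference, more than the median of 0.34, so the sign of that median turns with the scale. For LCS minus WT 0 were called higher and 25 lower (median -0.27), against 5.95% and 11.1%. The symbols found only there had median G609G minus WT folds of 0.44 (Rplp2, of the stalk), 0.32 (Rpl7a), 0.36 (Rpl38) and 0.66 (Rps3a). Their LCS minus WT medians were -0.09, -0.09, -0.46 and 0.16. Which of the annotated genes gave the signal was not tested.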

How the results depend on the processing

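In G609G minus WT the median fold of the members, 0.32, turned to -0.13 with the values as deposited and under both forms of the methods' t-test, which use those values. The 30 members called higher became 2 as deposited and 1 under either t-test form, and the 1 called lower became 22 as deposited, 2 after quantile normalization and 4 without a filter. The median was 0.49 with array medians set equal, 0.26 after quantile normalization, 0.27 after cyclic loess, 0.34 with the mean of probe sets, 0.30 with probe sets above the 25th percentile, 0.14 without a filter, 0.36 above the 50th percentile, and 0.33 with the arrays of 2 groups, with or without the replicate block. In LCS minus WT the median, -0.17, was -0.14 as deposited, without a filter and in the t-test forms, -0.15 with array medians set equal, -0.21 after quantile normalization, -0.19 after cyclic loess, above the 50th percentile and with the arrays of 2 groups (with or without the replicate block), and -0.20 with probe sets above the 25th percentile. The 22 members called lower became 0 in both t-test forms, which ask for a fold of 1.5. The 1 called higher became 0 after quantile normalization, after cyclic loess and in the t-test forms, and 2 without a filter, with array weights and with the arrays of 2 groups, with or without the replicate block. In G609G minus LCS the median, 0.50, was 0.02 as deposited and in the t-test forms, 0.65 with array medians set equal, 0.49 after cyclic loess, with probe sets above the 25th percentile and with the arrays of 2 groups (with or without the replicate block), 0.56 with the mean of probe sets, 0.31 without a filter, and 0.55 above the 50th percentile and with probe sets brighter than 12 left out. The 33 called higher became 12 as deposited and 1 in the t-test forms; the 1 called lower became 9, 2 in the t-test forms, 4 without a filter and 0 with array medians set equal. Leaving out 1 array gave 28 to 31 higher and 1 lower in G609G minus WT (median 0.31 to 0.32), 0 to 2 higher and 20 to 23 lower in LCS minus WT (median -0.18 to -0.15), and 33 higher and 1 to 2 lower in G609G minus LCS (median 0.49 to 0.51). Probe set calls in G609G minus WT, 22, were 4 by the splicing index and 9 to 22 without 1 array. For LCS minus WT they were 5, or 3 above the 50th percentile, 1 by the splicing index and 2 to 7 without 1 array.

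Of the named genes, those that turned in G609G minus WT as deposited were Rplp0 (-0.28), Rplp1 (-0.12), Rpsa (-0.04), Rpl3 (-0.15), Rpl22 (-0.44), Rpl39 (-0.01), Rps27l (-0.31), Rpl7 (-0.04), Rpl7l1 (-0.27), Rps4y2 (-0.33), Rps4x (-0.12), Rpl5 (-0.28), Rpl13a (-0.13), Rps3 (-0.25), Rpl4 (-0.38) and Rps19bp1 (-0.38). In G609G minus LCS these were Rplp0 (-0.14), Rplp1 (-0.02), Rpl22 (-0.08), Rps27l (-0.21), Rpl7l1 (-0.43), Rps4y2 (-0.25), Rpl5 (-0.21), Rpl13a (-0.08) and Rpl41 (-0.28), and Rpl39 lost its call at a difference of 0. Without a filter Rpl4 was at -0.10 in G609G minus WT and Rpl7l1 at -0.14 in G609G minus LCS. No named gene that passed the test in LCS minus WT under either setting turned there, while Rps15a (-0.12 to 0.04) and Rpl39 (-0.07 to 0.01), which did not pass, took both signs. The turns as deposited follow from the scale itself, and other causes were not tested. With the replicate block and the arrays of 2 groups, Rpl4 passed in G609G minus WT (0.08, limma adjusted p = 0.0312), and Rpl5 (-0.12), Rpl13a (-0.10) and Rps19bp1 (0.19) passed in LCS minus WT, where same-numbered arrays did not deviate together in every pair. The block changed no other call of a named gene, and 7 of 9 arrays correlated best with an array of their own number.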
